A study of Bos taurus with 32 samples.

Results

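The bta-miR-143 and bta-miR-145 cluster comprised 2 of the 672 bovine miRNAs on the array, and both were taken by their names among the miRNA features. No measured value entered that rule, although the cluster was chosen with earlier results of these data known. Their expression was profiled on 32 single-colour arrays, 1 for each sample of backfat, here subcutaneous fat, and of perirenal fat, here visceral fat, from 16 Hereford × Aberdeen Angus steers. The Control diet was based on barley grain and the High fat diet replaced a part of that grain with flaxseed, and both were fed until slaughter. The 4 groups were subcutaneous fat of Control steers, visceral fat of the same Control steers, subcutaneous fat of steers fed the high fat diet and visceral fat of those same steers, with 8 steers in each. Every sample was a piece of whole tissue, so that fewer cells of a type and less RNA per cell cannot be told apart. The arrays of each group lay on a slide of their own, and the slides of each diet were scanned in a session of their own, so that diet and session, and group and slide, cannot be told apart.

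The miRNAs miR-143 and miR-145 are neighbouring genes that are usually cut from a common primary transcript. Both are abundant in smooth muscle cells and fibroblasts. In smooth muscle cells the promoter of the cluster is driven by serum response factor and its partner myocardin. There miR-145 holds the cells in their contractile state by repressing the transcription factor KLF4. In fat, miR-143 is known to promote the differentiation of preadipocytes, and in mice it rises with obesity and impairs insulin signalling in liver, while miR-145 has been described as a brake on preadipocyte differentiation. In the RefSeq annotation of the ARS-UCD2.0 assembly, which is not the assembly named in the array files and was used only for names and order, MIR143 and MIR145 lay on the same chromosome with 0 other genes starting between them, and both lay within the long non-coding RNA gene LOC132345768.

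The arrays of the 2 diets differed in brightness. The summed intensity of all miRNAs on an array was between 26021 and 79290 on the Control arrays, and between 96888 and 366714 on the High fat arrays. The median of this sum was 5.42-fold higher in the High fat arrays, whereas the labelling spike-ins were at 0.847 and the local background at 0.957 of their Control medians. Because of this, each result is given as an intensity, as an intensity scaled within its array, and relative to other miRNAs of the same array. The scaled intensity is the log2 of the intensity over the array's 75th percentile, taken over the 91 miRNAs detected on all 32 arrays. The lowest intensity that was called detected on an array, here its detection limit, was between 1.79 and 5.11 on Control arrays and between 1.73 and 5.26 on High fat arrays.

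MiR-143 was detected on all 16 arrays of the high fat diet and on 5 of 16 Control arrays. In subcutaneous fat of Control steers it was detected in 2 of 8 steers, with intensities of 2.79 in steer 108 and 4.14 in steer 209. In visceral fat of Control steers it was detected in 3 of 8, and the intensities were 4.33 in steer 211, 5.29 in steer 405 and 4.08 in steer 410. The steers with a detected value thus differed between the depots. On the other 11 Control arrays the files list 0.1, the entry for a miRNA that was not detected. In steers fed the high fat diet, the intensity in subcutaneous fat had a median of 89.9, from 54.0 in steer 109 to 153 in steer 411. In their visceral fat the median was 57.7, with the lowest intensity of 26.3 in steer 303 and the highest of 168 in steer 302. Every High fat array was brighter for miR-143 than every Control array of either depot, where the median summed intensity of all miRNAs was also 5.42-fold higher. The error that the scanner software gave for the total was between 16.0% and 26.0% of the value on the 5 Control arrays and between 9.29% and 10.9% on the High fat arrays.

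MiR-145 was detected on all 32 arrays, with all of its 20 spots well above background on each. In subcutaneous fat its intensity in Control steers was between 116 in steer 405 and 471 in steer 209, with a median of 355. In steers fed the high fat diet the intensity in this depot was between 1133 and 3682, with a median of 2012. In visceral fat the median was 345 in Control steers, from 191 to 549, and 1514 in steers fed the high fat diet, from 960 to 3387. Without scaling, the diets did not overlap for miR-145 in either depot. Of the 240 miRNAs tested unscaled, 206 passed by limma as higher with the high fat diet in subcutaneous fat and 165 in visceral fat.

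**Figure D1:**
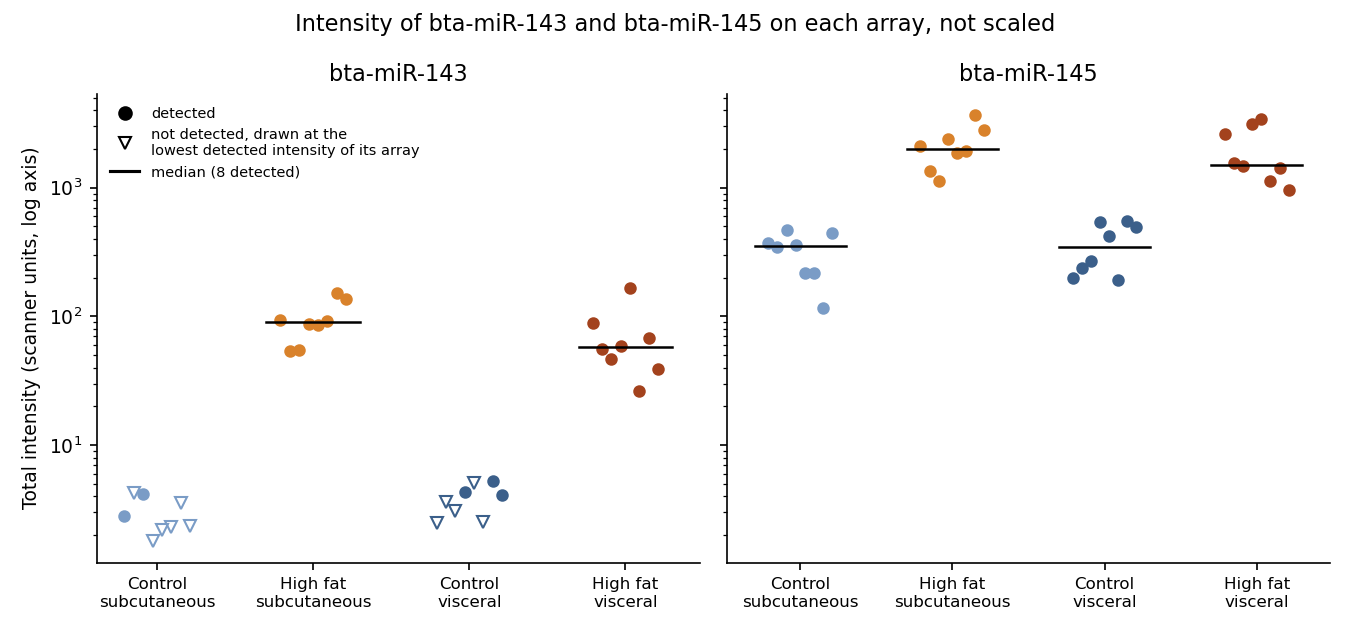
Total intensity of bta-miR-143 (left) and bta-miR-145 (right) on each of the 32 arrays, in scanner units on a log axis, by diet and depot, with points for single arrays, open triangles for arrays on which the miRNA was not detected (drawn at the detection limit of that array) and lines at the medians of groups with 8 detected values. MiR-143 sat between 2.79 and 5.29 on the 5 Control arrays that detected it and between 26.3 and 168 on the High fat arrays, and miR-145 was measured on every array.

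After scaling, the high fat diet went with more miR-143 in both depots. In subcutaneous fat the mean log2 scaled intensity was -7.08 ± 0.272 (SD, n = 8) in Control steers, of which 6 were at the common floor set for low values, and -4.36 ± 0.221 (SD, n = 8) in steers fed the high fat diet. The difference of 2.73 on the log2 scale (SE 0.212) passed the test, with an adjusted p of 6.78e-13 by limma. In visceral fat the means were -6.72 ± 0.709 (SD, n = 8) with 5 arrays at the floor and -4.07 ± 0.333 (SD, n = 8), and the difference was 2.66 (SE 0.212, adjusted p = 1.63e-12 by limma). Because most Control values were the same floor value, the Control SDs do not measure the spread between steers. The SEs and p-values carry the same limit. MiR-143 also met the filter for testing, detection on 8 or more arrays, only through its High fat arrays. Of the 233 miRNAs tested, 76.0% passed in subcutaneous fat and 71.7% in visceral fat, and 41.6% and 42.1% were higher with the high fat diet, so that a passed test did not set miR-143 apart from the others. The scaled values of the diets did not overlap for miR-143 in either depot, which held for 52.8% of the tested miRNAs in subcutaneous fat and 46.4% in visceral fat.

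Since most Control values of miR-143 were below detection, the size of its difference is a bound. With each undetected array set to its own detection limit, miR-143 was at least 4.22-fold higher with the high fat diet in subcutaneous fat and at least 3.03-fold higher in visceral fat after scaling. That limit is the lowest over all miRNAs of an array and not one of miR-143 itself, so that all such bounds are approximate. Without scaling, these bounds were at least 31.8-fold and at least 16.2-fold. The direction of the bound held when the arrays were scaled to the labelling spike-ins, to the sum of all intensities, to the median of the 91 miRNAs or to bta-miR-181a, the miRNA the study used as its reference, with bounds on the log2 scale between 1.82 and 5.24 in these 4 scalings over both depots. With the 75th percentile over all 672 miRNAs the same calculation gave -2.06 and -2.85 on the log2 scale. These values are not read as bounds, because that percentile equalled the entry for undetected miRNAs on 15 of 16 Control arrays. With normexp background correction of the spot signals and an offset of 50, the differences turned to -2.09 and -1.55 on the log2 scale. The pattern of detection itself, on all 16 High fat arrays and on no more than 5 Control arrays, was shared by 31 of the 672 miRNAs (4.61%). In all, 159 miRNAs were detected on every High fat array, and 15 of them on 0 Control arrays.

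MiR-145 did not pass the test for diet after scaling. Its mean log2 scaled intensity in subcutaneous fat was 0.28 ± 0.460 (SD, n = 8) in Control steers and 0.15 ± 0.232 (SD, n = 8) in steers fed the high fat diet. The difference was -0.12 (95% interval -0.51 to 0.26, adjusted p = 0.561 by limma). In visceral fat the means were 0.84 ± 0.353 and 0.83 ± 0.423 (SD, n = 8 each), and the difference was -0.015 (95% interval -0.40 to 0.37, adjusted p = 0.979 by limma). Values of the diets overlapped in both depots. The sign and the size of this difference depended on the scaling, from -4.27 with the percentile over all 672 miRNAs to 3.04 with the labelling spike-ins in subcutaneous fat, and from -4.46 to 2.86 in visceral fat. In the values that the authors normalized and deposited, miR-145 was lower with the high fat diet, with differences of -1.52 and -1.08 on the log2 scale, and both passed (adjusted p = 0.000113 and 0.00426 by limma).

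The scaling shifted all miRNAs of an array together. With the main scaling, the 91 miRNAs present on every array had a median diet difference of -0.91 in subcutaneous fat and -0.80 in visceral fat, and this median moved between -5.05 and 2.26 and between -5.24 and 2.08 over 7 scalings. Taken from that median, the difference of miR-145 was 0.78 in each depot. Over the 7 scalings it stayed between 0.72 and 0.78 in subcutaneous fat and at 0.78 in visceral fat. Such a shift of whole arrays leaves this distance nearly fixed for a miRNA above the floor. With spot intensities it was 0.75 and 1.88, and with normexp background correction 1.12 and 2.05. MiR-145 lay above 56 of the 91 miRNAs in subcutaneous fat and above 54 in visceral fat, near the middle of them. MiR-143 lay above 88 of the 91 in both depots. This rank leaves out the other miRNAs that were undetected on part of the arrays. Some of those differed more with diet, such as bta-miR-21 (3.83 and 3.48), and some less, such as bta-miR-1 (2.01 and 2.21). The distance of miR-143 from the median was 3.63 in subcutaneous fat and 3.45 in visceral fat, measured with the floor in place, and over the 7 scalings it ran from 2.82 to 6.52 and from 2.55 to 5.53. With normexp background correction miR-143 lay below the median, at -0.90 and -0.46 from it.

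**Figure D2:**
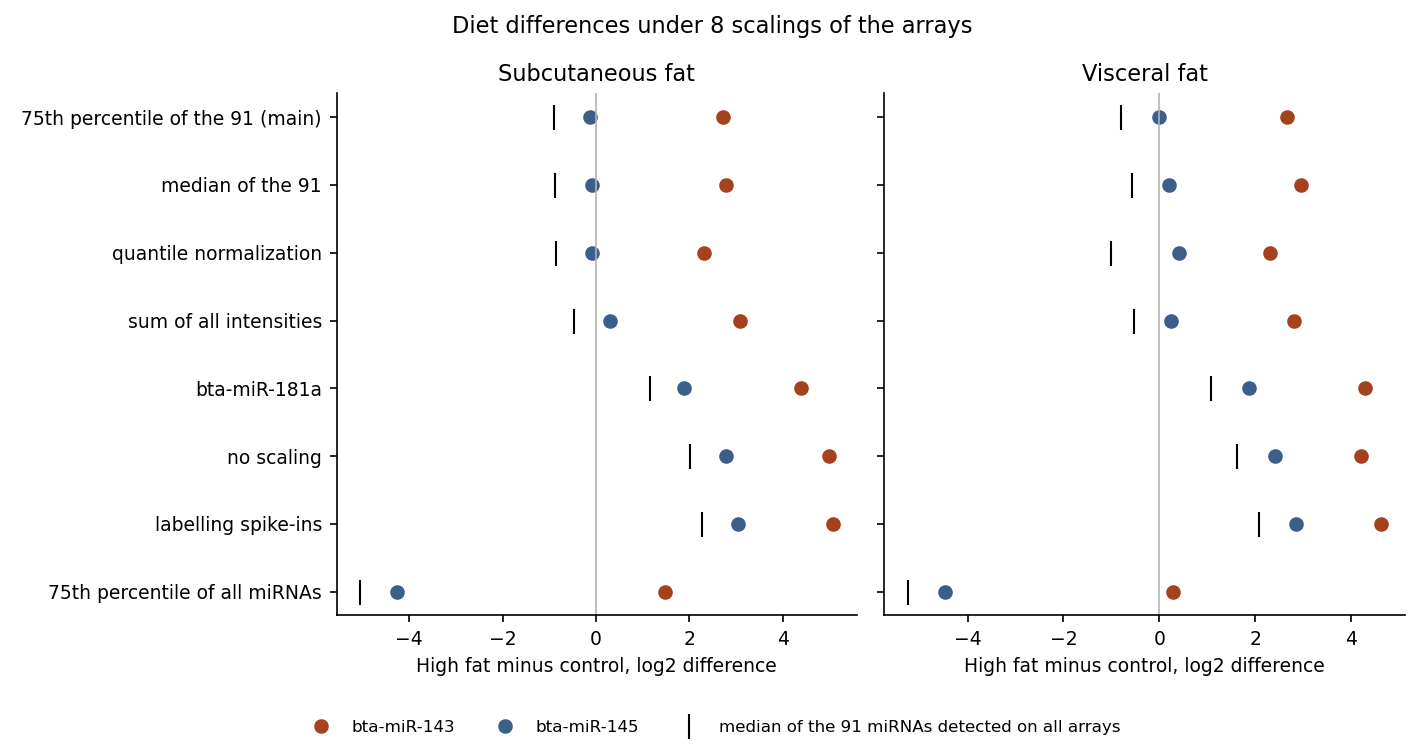
High fat minus Control difference of bta-miR-143, of bta-miR-145 and of the median of the 91 miRNAs detected on all arrays, on the log2 scale, in subcutaneous fat (left) and visceral fat (right) under 8 scalings of the arrays. MiR-145 moves with the median and stays 0.72 to 0.78 to its right, except under quantile normalization in visceral fat, which is not a single factor for each array, while miR-143 lies to the right of both under each scaling shown, at a distance that varies.

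The within-array ratio of miR-145 to miR-143 needs no scaling, since any factor of the array cancels. The size of this ratio also carries the unequal response of the probes, so only its differences between arrays are read here. In steers fed the high fat diet the ratio had a median of 22.1 in subcutaneous fat, from 20.7 in steer 412 to 27.2 in steer 204. In visceral fat it had a median of 28.6, from 20.2 in steer 302 to 52.5 in steer 204. On the 5 Control arrays that detected miR-143 the ratio was between 104 and 134, with a median of 122. On the other 11 Control arrays only an approximate lower bound from the detection limit was had, between 32.5 in subcutaneous fat of steer 405 and 202 in subcutaneous fat of steer 211. Every Control value or bound lay above every High fat value of the same depot.

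With the bounds entered as values, the mean log2 ratio in subcutaneous fat was 6.71 ± 0.825 (SD, n = 8) in Control steers and 4.51 ± 0.142 (SD, n = 8) in steers fed the high fat diet. The ratio was at least 4.60-fold lower with the high fat diet (two-sided exact permutation test, p = 0.000155, the smallest that 8 arrays against 8 allow, adjusted p = 0.000233 over 3 comparisons). In visceral fat the means were 6.50 ± 0.334 and 4.89 ± 0.479 (SD, n = 8 each), and the ratio was at least 3.06-fold lower (exact permutation p = 0.000155, adjusted p = 0.000233). With these bounds, miR-143 differed between the diets by a larger factor than miR-145 on the same arrays, in both depots. The p-values take 11 of 16 Control ratios at their approximate bound, and an offset added to the signals does not cancel in the ratio. With normexp background correction on the brightest probe of each miRNA the differences turned to 0.48 and 0.54 on the log2 scale, against -2.20 and -1.61.

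**Figure D3:**
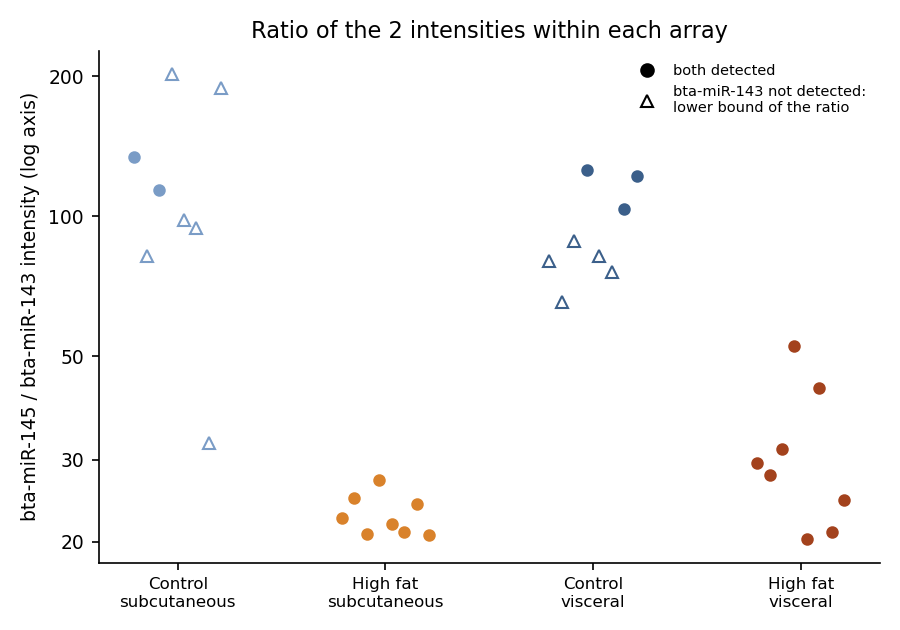
Ratio of the intensity of bta-miR-145 to that of bta-miR-143 within each of the 32 arrays, on a log axis, by diet and depot, with points where both were detected and open triangles for lower bounds where miR-143 was not. The High fat arrays sat between 20.2 and 52.5 and the 5 Control arrays with both detected between 104 and 134.

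Between depots, miR-145 was higher in visceral fat than in subcutaneous fat. In steers fed the high fat diet the log2 scaled intensity in visceral fat was between 0.49 and 1.70 and that in subcutaneous fat between -0.23 and 0.41, without overlap, which 9.44% of the tested miRNAs shared. Without overlap, it was by necessity higher in the visceral fat of 8 of 8 steers, by 0.22 in steer 411 up to 1.29 in steer 103 on the log2 scale. The difference of means was 0.67 (SE 0.188), or 1.59-fold (adjusted p = 0.00846 by limma, 0.0207 with the steer as a block), in a comparison where 26.2% of the miRNAs passed and 11.6% were higher in visceral fat. In Control steers the depots overlapped, miR-145 was higher in visceral fat in 6 of 8 steers, and the difference of means was 0.56, or 1.48-fold (SE 0.188, adjusted p = 0.0317 by limma). In that comparison 18.9% of the miRNAs passed and 6.87% were higher in visceral fat.

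The depot difference of miR-145 in Control steers was near the threshold. With the steer as a block its adjusted p by limma was 0.0573, and leaving out any of 7 arrays ended the call, with adjusted p up to 0.0912, namely subcutaneous fat of steers 209, 307, 308 and 405 and visceral fat of steers 211, 307 and 405. Unscaled, the depot differences were 0.19 in Control steers and -0.19 in steers fed the high fat diet, and neither passed. From the median of the 91 miRNAs, miR-145 was 0.56 higher in visceral fat in Control steers and 0.53 higher with the high fat diet. Over the 7 scalings these distances stayed at 0.56 and between 0.53 and 0.54. For a miRNA above the floor this is nearly fixed in advance, since each scaling shifts a whole array by the same amount. With spot intensities the distances were 0.22 and 1.28, and with normexp background correction 0.077 and 1.02. MiR-145 lay above 79 of the 91 miRNAs in Control steers and above 77 in steers fed the high fat diet.

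MiR-143 did not pass the test between depots. In steers fed the high fat diet, where it was measured on every array, the difference of visceral minus subcutaneous fat was 0.29 on the log2 scale (95% interval -0.14 to 0.72, adjusted p = 0.355 by limma). Its values overlapped between the depots, and 6 of 8 steers had the higher scaled intensity in visceral fat. In Control steers the difference of 0.36 (adjusted p = 0.272 by limma) rested on the 5 detected arrays against the floor. For neither miRNA did the depot difference itself differ between the diets, at -0.069 for miR-143 (adjusted p = 0.958 by limma) and 0.11 for miR-145 (adjusted p = 0.953), in a comparison that 1.72% of the miRNAs passed.

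**Figure D4:**
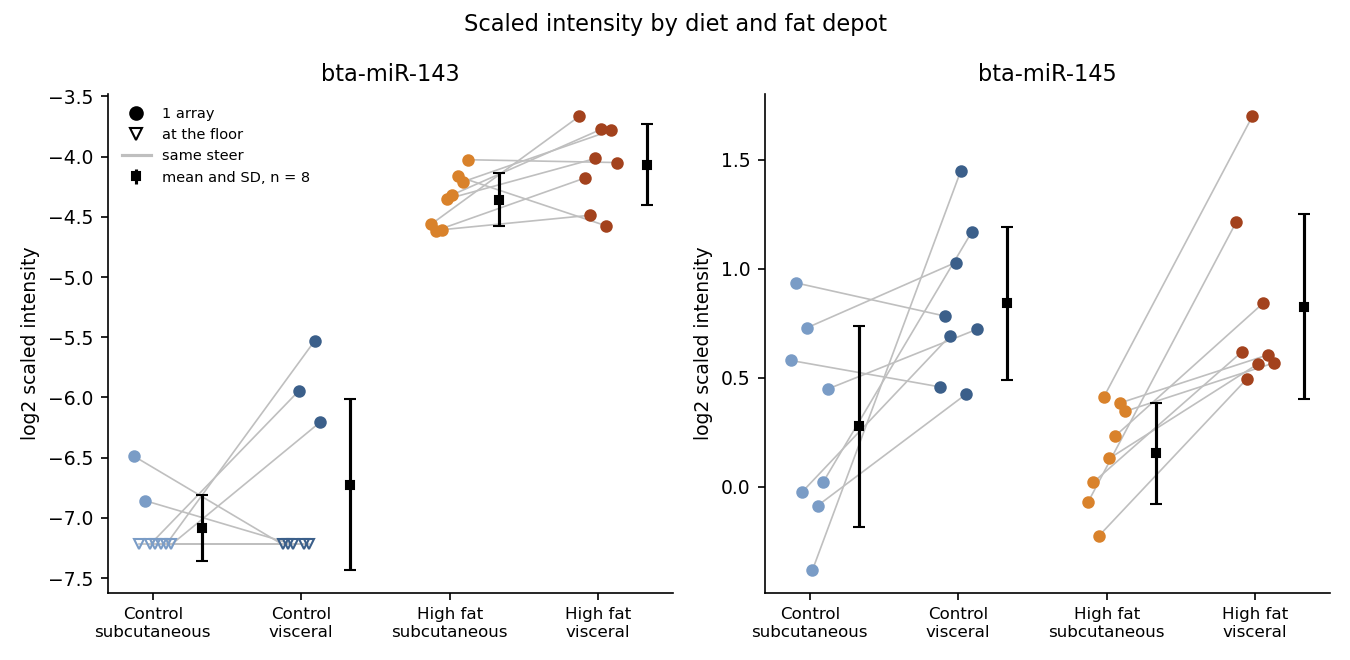
Log2 scaled intensity of bta-miR-143 (left) and bta-miR-145 (right) in each diet and depot, with grey lines joining the 2 depots of a steer, open triangles at the common floor, and squares with bars for the mean and SD of 8 arrays. With the high fat diet the depots do not overlap for miR-145, so that its lines rise from subcutaneous to visceral fat in 8 of 8 steers. For miR-143, 11 of 16 Control values lie at the floor.

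Within steers fed the high fat diet, the ratio of miR-145 to miR-143 in visceral fat exceeded that in subcutaneous fat by 0.38 on the log2 scale, or 1.30-fold (two-sided exact permutation p = 0.0421, adjusted p = 0.0421 over the 3 comparisons). The depots overlapped in this ratio, and 6 of 8 steers had the higher ratio in visceral fat. Paired by steer, the exact sign-flip permutation test gave p = 0.0547, and leaving out 1 of 11 of the 16 arrays in turn also ended the call, with exact permutation p up to 0.078. The other 5 arrays were subcutaneous fat of steers 109 and 204 and visceral fat of steers 302, 411 and 412. In visceral fat the ratio spread more widely between steers, with an SD of 0.479 on the log2 scale against 0.142 in subcutaneous fat, and the values of steers 204 and 303 stood highest at 52.5 and 42.7.

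The array reads each miRNA with several probes, and for miR-143 they did not respond alike. Of its 3 probes, A_38_P00015299 (6 spots) carried most of the signal, with total intensities between 50.5 and 141 in subcutaneous fat and between 26.3 and 154 in visceral fat of steers fed the high fat diet. All of its 6 spots were well above background on every High fat array. Probe A_38_P00015298 (7 spots) gave between 1.91 and 13.3 on the High fat arrays and was above background by 0 spots on all Control arrays. Probe A_38_P00015297 (7 spots) had 1 spot above background on 1 Control array and none on the High fat arrays, with totals of up to 1.31. The totals of miR-143 thus rested on 1 of its 3 probes.

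MiR-145 was read by 2 probes of 10 spots each, and both were well above background on all arrays. Probe A_38_P00001557 was the brighter, by a mean of 5.30-fold in Control and 5.84-fold in High fat subcutaneous fat, and by 5.39-fold and 5.74-fold in visceral fat. The ratio of these probes, which read the same miRNA, was a little larger on the brighter High fat arrays, with log2 SDs between 0.043 and 0.071 within groups. For miR-143, A_38_P00015299 exceeded A_38_P00015298 by a mean log2 ratio of 3.32 in Control and 3.68 in High fat subcutaneous fat. In visceral fat these means were 5.81 and 3.71. Only 3 Control arrays of each depot gave a positive signal for both probes. The part of probe response in the diet difference of the miR-145 to miR-143 ratio was not tested.

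The members of the cluster varied together in subcutaneous fat of steers fed the high fat diet, but not clearly in their visceral fat. For the scaled intensities in subcutaneous fat, Pearson's r was 0.81 over 8 steers (permutation p = 0.0208, adjusted p = 0.0277 over 4 relations) and Spearman's rho was 0.62 (permutation p = 0.115). Without the 2 steers farthest from the median, r was 0.65. In visceral fat r was 0.21 (permutation p = 0.637, adjusted p = 0.637) with a rho of 0.17 (permutation p = 0.703), and r was -0.41 without the 2 farthest steers. Unscaled, r was 0.97 in subcutaneous fat (permutation p = 0.000868, adjusted p = 0.00347, rho 0.90 with permutation p = 0.00456) and 0.80 in visceral fat (permutation p = 0.0109, adjusted p = 0.0218, rho 0.79 with permutation p = 0.0279), and without the 2 farthest steers these were 0.94 and 0.82. Unscaled values also share the brightness of the array. In Control steers miR-143 was detected too seldom for such a relation.

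The miRNAs most like each member were ranked by Pearson's correlation of the scaled intensity, after subtraction of the group means, among the 91 miRNAs detected on all arrays, as a description. Over the 32 arrays, miR-145 was most like bta-miR-23b-3p (r 0.81), bta-miR-99b (0.78), bta-miR-361 (0.76), bta-miR-30f (0.75) and bta-miR-365-3p (0.75). MiR-143 ranked 39 for it, with r of 0.28, where the median over the 91 was 0.24. For miR-143 the 5 nearest over all arrays were bta-miR-29a (r 0.74), bta-miR-27b (0.71), bta-miR-15a (0.71), bta-miR-30b-5p (0.66) and bta-miR-30c (0.64), although 11 of its values lay at the floor. Over the 16 High fat arrays, on all of which miR-143 was measured, they were bta-miR-27b (r 0.77), bta-miR-15a (0.69), bta-miR-126 (0.69), bta-let-7g (0.63) and bta-miR-29a (0.58), and miR-145 ranked 12 with r of 0.37. These lists held 3 names in common for miR-143, and neither list held its cluster partner.

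The cluster was set beside other miRNAs known from smooth muscle. Of 6 miRNAs linked with the contractile state, 4 were higher with the high fat diet in subcutaneous fat and 5 in visceral fat, and 0 were lower, where 41.6% and 42.1% of the tested miRNAs were higher and 34.3% and 29.6% lower. Their median differences were 0.87 and 1.11 on the log2 scale, against 0.10 and 0.17 over the 233 tested miRNAs. A miRNA detected on fewer than 8 Control arrays met the filter for testing only through its High fat arrays. Of those counted as higher, this held for bta-miR-1, detected on 1 of 16 Control arrays. The largest rise that was measured on all arrays was that of bta-miR-195, by 1.85 in subcutaneous and 1.96 in visceral fat. Of 7 tested miRNAs of proliferating smooth muscle, 4 were higher in each depot and 0 lower, against those same shares of all tested miRNAs, with medians of 0.86 and 1.04, among them bta-miR-24-3p with 1.10 and 1.22 and, with the largest differences, bta-miR-21, which was detected on 7 of 16 Control arrays, with 3.83 and 3.48. Of these, bta-miR-21 and bta-miR-24, the latter detected on 0 of 16 Control arrays, met the filter only through their High fat arrays. MiR-145, the defining miRNA of contractile smooth muscle, was at -0.12 and -0.015 on the same scale. Taken from the median of the 91 miRNAs, the contractile list was at 1.78 and 1.90 and the proliferative list at 1.76 and 1.83, against 0.78 for miR-145. With the percentile over all 672 miRNAs the median of both lists fell below 0 in both depots, and it was above 0 in the other 6 scalings.

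Between depots few members of these lists passed. With the high fat diet, 1 contractile miRNA was higher in visceral fat (bta-miR-10a, 0.93) and 1 lower (bta-miR-204, -0.998), and 4 did not pass. In Control steers bta-miR-204 was lower (-1.47) and the other 5 did not pass, where 12% of the tested miRNAs were lower, against 14.6% with the high fat diet. Of the proliferative list, bta-miR-24-3p (-0.33) and bta-miR-221 (-1.06) were lower in visceral fat of Control steers, and bta-miR-222 (-0.66) with the high fat diet. None of the 7 was higher in visceral fat with either diet.

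Among miRNAs known to promote adipocyte differentiation, the described role of miR-143, the high fat diet went with higher values for 10 of 13 in subcutaneous fat, and for 12 of them in visceral fat, where 41.6% and 42.1% of all tested miRNAs were higher. Among those counted as higher, bta-miR-210, bta-miR-17-5p and bta-miR-21 met the filter for testing only through their High fat arrays. They were detected on 1, 5 and 7 of 16 Control arrays. In visceral fat this also held for bta-miR-146b, detected on 0 Control arrays. The median differences of this list were 1.25 and 1.40, and 1 member was lower, bta-miR-378 in subcutaneous fat (-0.64). Its largest differences were those of bta-miR-21 in subcutaneous fat (3.83) and bta-miR-148a in visceral fat (3.74). MiR-143, at 2.73 and 2.66, lay above the median of the list. Of 17 tested miRNAs known to restrain adipocyte differentiation, the described role of miR-145, 6 were higher and 7 lower in subcutaneous fat, and 5 were higher and 7 lower in visceral fat, where 34.3% and 29.6% of all tested miRNAs were lower. Its medians were 0.03 and -0.06. Its lowest differences were those of bta-let-7b, at -2.75 and -3.12, and its highest those of bta-miR-27a-3p, detected on 11 of 16 Control arrays, at 3.53 and 4.17. Among the lower members in both depots were bta-let-7a, bta-let-7b, bta-let-7c, bta-let-7d, bta-let-7e and bta-let-7f, all of the let-7 family. Higher in both were bta-let-7g of that family, bta-miR-27a-3p, bta-miR-27b and bta-miR-130a. In subcutaneous fat bta-miR-130b was counted as higher, although it was detected on 0 of 16 Control arrays. The promoting list had a median above 0 in 6 of 7 scalings in both depots, and the restraining list in 6 in subcutaneous fat and 4 in visceral fat.

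Between depots, 1 miRNA of the promoting list was higher and 1 lower in visceral fat of Control steers, and 2 were higher and 2 lower with the high fat diet, bta-miR-378 being higher in both (0.89 and 1.49) and bta-miR-204 lower in both. Of the restraining list, 2 were higher and 1 lower in Control steers, and 1 was higher and 3 lower with the high fat diet, where 6.87% and 11.6% of all tested miRNAs were higher and 12% and 14.6% lower. The higher ones were bta-let-7b and bta-let-7d in Control steers and bta-let-7d with the high fat diet.

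MiRNAs that mark other cells of the tissue moved with diet and depot beside the cluster. Of 8 tested miRNAs of fibroblasts and stroma, a cell type in which miR-143 and miR-145 are also abundant, 7 were higher and 1 lower (bta-miR-214, -1.79 and -1.71) with the high fat diet in each depot, where 41.6% and 42.1% of all tested miRNAs were higher, with medians of 1.91 and 2.23. In visceral fat 5 of the 8 were lower in Control steers and 4 of the 8 with the high fat diet, and 0 were higher, where 12% and 14.6% of all tested miRNAs were lower, with medians of -0.79 and -0.76. Summed, the 9 listed miRNAs made up 0.843% to 2.27% of the array's intensity in Control subcutaneous fat, 0.579% to 1.80% in Control visceral fat, 4.27% to 6.20% in High fat subcutaneous fat and 1.62% to 4.21% in High fat visceral fat. Such shares are relative, so that 1 rises where another falls. The share of the restraining list, which holds the let-7 family, was 52.2% to 66.0% and 63.0% to 74.6% in Control subcutaneous and visceral fat. With the high fat diet it was 21.4% to 26.6% and 17.8% to 22.4%.

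The endothelial miRNAs bta-miR-126 and bta-miR-126* were both higher with the high fat diet in each depot, where 41.6% and 42.1% of all tested miRNAs were higher. The difference of bta-miR-126, which was detected on all arrays, was 2.11 in subcutaneous and 2.03 in visceral fat. In visceral fat bta-miR-126 was also higher than in subcutaneous fat, by 0.66 in Control steers and 0.57 with the high fat diet, as miR-145 was. Their summed share was 0.230% to 1.01% and 0.432% to 1.43% in Control subcutaneous and visceral fat, against 2.62% to 3.72% and 2.69% to 4.76% with the high fat diet. The part of endothelial and stromal cells in the differences of miR-143 and miR-145 was not tested.

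Blood cell, skeletal muscle, epithelial and liver miRNAs made up little of the intensity. Of 4 tested blood cell miRNAs, 2 were higher with the high fat diet in each depot (bta-miR-142 and bta-miR-451), and 1 in subcutaneous and 2 in visceral fat were lower. Of all tested miRNAs, 41.6% and 42.1% were higher and 34.3% and 29.6% lower. The summed share of the blood cell list was 0.129% to 0.731% over all arrays. In the skeletal muscle list bta-miR-1 was the 1 of 3 tested members that was higher in both depots, against those same shares of all tested miRNAs. This list had a summed share of at most 0.168%, the epithelial miRNAs of at most 0.00772%, and the liver miRNA bta-miR-122 of at most 0.290%. The defining skeletal muscle miRNA bta-miR-1 was detected on 1 of 16 Control arrays and on all 16 High fat arrays.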

How the data were processed

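The 32 arrays were put into groups by diet and depot, and tied to steers, from their labels. Per the file headers, the authors extracted each scan with Feature Extraction 10.7.3.1, and the deposited intensity of a miRNA is its background-subtracted signal summed over probes, unscaled between arrays, with 0.1 for an undetected one. Deposited log2 values, which the authors had scaled to the 75th percentile, form a further table. The rows of that table carry numbers only, and all 244 rows with a value matched 1 miRNA within 0.0001. They equal the log2 intensity minus a constant of the array, with lower values listed as 0, and column medians over these rows ran from 0 to 3.46 on Control and from 1.20 to 1.83 on High fat arrays.

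Each total intensity was divided by the array's 75th percentile over the 91 miRNAs detected on all 32 arrays, and log2 values under a common floor of -7.22 were set to it. The floor is the lowest scaled intensity called detected on an array, as a median across the arrays. Detection on 8 or more arrays was met by 240 miRNAs, and the 233 of them that were not at the floor throughout were tested two-sided with limma 3.58.1 in R 4.3.3 (a single lmFit and eBayes model of the 4 groups, with Benjamini-Hochberg adjusted p under 0.05). For a bound, undetected arrays were set to their lowest detected intensity of any miRNA. Ratios within arrays were compared by exact permutation tests (SciPy 1.17.1). The normexp alternative used the median signal of a spot, since mean signals were not used here. The fit was tested on simulated data.

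The depots of a steer are paired by animal. The deviations of same-numbered samples from their group means correlated above 0.1 in 6 of 16 steers over the 91 miRNAs, with a median of -0.20. No spot of a miRNA was saturated, and the number of arrays limits the precision.

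The named miRNAs are the 2 members, the members of 10 lists of miRNAs known from other cells or from adipocyte differentiation (by counts, with the largest change in each direction), bta-miR-181a, and the 5 miRNAs most like each member. The members and the lists were chosen with earlier results of these data known. The replicates of a group are different steers.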

Additional observations from a re-analysis of the deposited data

How the results depend on the processing

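Values are log2 differences, in the order subcutaneous and visceral fat for diet and Control and High fat for depot, and where not stated the cause of a change was not tested. The higher miR-143 with the high fat diet kept its direction and call in 14 of 17 alternatives in each depot. With the 75th percentile over all 672 miRNAs it did not pass (1.47 and 0.29), that percentile being the entry for undetected miRNAs on 15 of 16 Control arrays, and with normexp it reversed (-2.09 and -1.55, and -0.67 and -0.41 on the brightest probe). Between depots, miR-143 passed in Control steers with a floor at an intensity of 1 (0.75), and with the high fat diet it passed under normexp (0.79, brightest probe 0.61) and reversed without scaling (-0.58) and with spike-ins (-0.23). Its depot difference between the diets turned to 0.16 with the median of the 91 miRNAs, 0.0045 with quantile normalization and 0.53 and 0.26 under both forms of normexp.

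For miR-145, the diet difference in subcutaneous fat turned to 2.79 without scaling, 0.30 with the sum of intensities, 1.88 with bta-miR-181a and 3.04 with spike-ins. It passed at -4.27 with the percentile over all 672 miRNAs and at -1.52 in the deposited values. In visceral fat it turned to 2.41, 0.24, 1.86 and 2.86 under those 4 scalings, to 0.21 with the median of the 91, 0.40 with quantile normalization, 0.99 with spot intensities and 0.96 and 0.13 under both forms of normexp, and it passed at -4.46 and -1.08 with the percentile over all miRNAs and in the deposited values.

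The depot difference of miR-145 in Control steers passed in 4 of 18 alternatives. It did not pass with the percentile over all miRNAs (0.88), without scaling (0.19), with the median of the 91 (0.56), the sum (0.46), bta-miR-181a (0.44), spike-ins (0.34), spot intensities (0.29, brightest probe 0.56), normexp (0.21, brightest probe 0.47) and the deposited values (0.26), nor at 0.56 with the replicate block or the methods' t-test with either correction. With the high fat diet it reversed without scaling (-0.19), and did not pass with the percentile over all miRNAs (0.69), the sum (0.40), bta-miR-181a (0.42), spike-ins (0.16), the deposited values (0.70) or the methods' t-test with Bonferroni correction (0.67). Its depot difference between the diets turned to -0.20, -0.38, -0.057, -0.020 and -0.18 with the percentile over all miRNAs, no scaling, the sum, bta-miR-181a and spike-ins. The block by steer changed 1 other call, that of the ratio with the high fat diet (0.38, exact sign-flip permutation p = 0.0547).

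The difference of the log2 ratio of miR-145 to miR-143 between the diets reversed with normexp (2.02 and 2.51, brightest probe 0.48 and 0.54) and, in visceral fat, with the median of all spots (0.071), which rests on the dim probes of miR-143. Between depots with the high fat diet the ratio did not pass with normexp (0.45, brightest probe 0.19) or the brightest probe (0.34). The alternatives on the brightest probe were chosen after seeing the data.

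The miRNAs passing for diet, 177 and 167 by limma, were 79 and 80 when only the 91 miRNAs detected on all arrays were tested, where miR-143 was not. Those that were higher made up 54.8% and 58.7%, against 99.5% in both depots with spike-ins, 98.1% and 95.9% without scaling, 88.9% and 89.8% with bta-miR-181a, 14.1% and 12.7% with the percentile over all miRNAs and 32.1% and 42.1% in the deposited values. For depot in Control steers 44 passed, against 9 with the percentile over all miRNAs, 29 among the 91, 12 with spike-ins, 21 and 4 with the methods' t-test (Benjamini-Hochberg and Bonferroni), 27 without scaling, 6 and 12 with the forms of normexp and 17 with spot intensities. With the high fat diet 61 passed, against 9 with the percentile over all miRNAs, 14 in the deposited values, 22 with Bonferroni correction, 133 without scaling, 172 and 188 with normexp and 98 with the brightest probe. For the depot difference between the diets 4 passed, against 13 with spike-ins, 27 without scaling, 10 with the sum, 11 with bta-miR-181a, 2 with normexp on the brightest probe, 1 and 2 with spot intensities and the brightest probe, and 0 by limma among the 91, of which 3 had an unadjusted p under 0.05.

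Leaving out each of the 32 arrays in turn, the diet difference of miR-143 stayed between 2.68 and 2.81 and between 2.59 and 2.83, and its depot difference between 0.19 and 0.44 and between 0.23 and 0.36. That of miR-145 ran from -0.22 to -0.030 and from -0.14 to 0.072 for diet, and from 0.47 to 0.66 and from 0.55 to 0.72 for depot. The depot difference between the diets ran from -0.15 to 0.10 for miR-143 and from -0.016 to 0.20 for miR-145. The diet difference of the ratio stayed between -2.44 and -2.06 and between -1.73 and -1.53, and its depot difference with the high fat diet between 0.26 and 0.46. The numbers passing ran from 171 to 183 and from 161 to 173 for diet, from 34 to 58 and from 44 to 70 for depot, and from 1 to 7 for the difference between the diets. A miRNA that was not detected on most arrays of a group, as miR-143 in Control steers, has only a bound there.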
